A study of Mus musculus with 2 samples.

Results

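Glutamate and GABA carry most fast excitation and inhibition in the brain. AMPA (Gria), kainate (Grik) and NMDA (Grin) receptors are glutamate-gated channels assembled from several subunits, the delta subunits (Grid) are related proteins that organise synapses, and metabotropic receptors (Grm) signal through G proteins. GABA-A receptors (Gabr) are chloride channels, mostly of alpha, beta and gamma or delta subunits, and which subunits a neuron makes sets the kinetics, drug response and location of its receptors. The genes of these subunits were followed here in 2 coronal sections of the mouse brain after an experimental head injury. In controlled cortical impact (CCI) an impactor is driven into the exposed cortex, here over the right parietal lobe. The members were all genes of the probe panel whose symbols name such subunits, 45 of 19070 genes. They comprised 4 AMPA, 5 kainate, 2 delta, 7 NMDA and 8 metabotropic glutamate receptor genes and 19 GABA-A receptor genes.

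The groups were CCI 3 days and CCI 28 days, each a single section of brain from a male C57Bl6 mouse, aged 3 months when injured. Both mice were injured and no uninjured section was analysed here, so the side opposite the impact served as the reference. With 1 section per group there was no test between time points, and all intervals are 95% intervals that cover counting error only. Transcripts were counted as unique molecular identifiers (UMIs) in bins of 16 µm, which can hold parts of several cells.

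After bins with under 100 UMIs were left out, 119617 bins remained at 3 days and 103316 at 28 days, with a mean of 4.5 and 3.62 UMIs of the receptor genes per bin. The receptor genes held 0.447% of all UMIs at 3 days and 0.455% at 28 days. Because so few UMIs fell in 1 bin, they were summed over areas and scaled to counts per 1000000 UMIs (CPM). Probe counts depend on the probes of each gene, so levels are compared between areas for 1 gene and not between genes.

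The receptor genes differed strongly by region on the side opposite the impact, and the pattern recurred in both sections. Regions were areas of bins named by marker genes, and a member was called high where its CPM was at least 2-fold that of the rest of the side in both sections. The markers that named the areas were set against all other bins of both sides, unlike the members. They were clear in thalamus, where the 6 genes were higher by 3.02 to 4.35 at 3 days and 3.05 to 3.37 at 28 days on the log2 scale. In hippocampus they were higher by 2.24 to 4.85 and 2.35 to 4.48. Over the whole cortex of the side opposite the impact, some layer markers were not above those other bins. The layer 6 gene Foxp2 was at -1.03 and -1.05, and the layer 4 genes Scnn1a at -0.42 and -0.66 and Rorb at 0.23 and -0.58. All 36 members with at least 200 UMIs on that side in both sections were compared. In the thalamus, 35 of the 36 had the same direction against the rest in both sections, with a median difference of 0.12 between the sections on the log2 scale. In the hypothalamus and in cortical layer 6 it was 34 of 36, and in cortical layer 4, which held only 1888 and 424 bins, 27 of 36. The share of all genes with the same direction was not computed, so whether the receptor genes recurred more than others is not known.

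**Figure D1:**
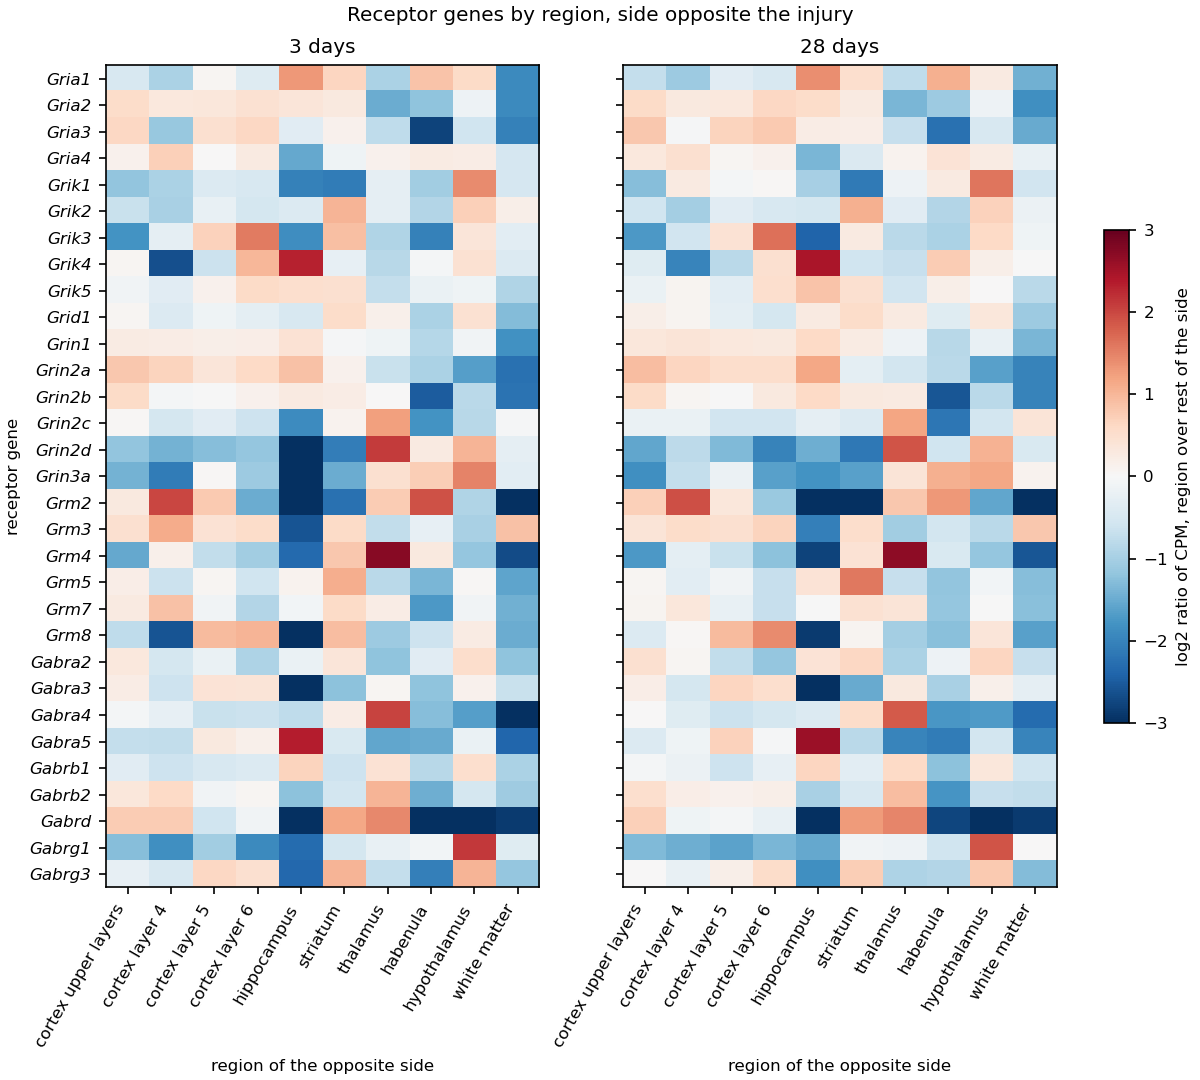
Log2 ratio of CPM of each region over the rest of the side opposite the impact (columns) for 31 of the receptor genes with at least 200 UMIs there (rows), in the sections at 3 days (left) and 28 days (right). Colours are capped at 3 in either direction. The red blocks of the thalamus (Grm4, Grin2d, Gabra4), hippocampus (Gabra5, Grik4) and hypothalamus (Gabrg1, Grik1) stand in both panels, and the white matter column is mostly blue.

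The thalamus had the longest list of high members, 6 of 36, against 2.73% of the 11816 genes with as many UMIs. Grm4, a presynaptic metabotropic receptor, had 310 CPM in the thalamus at 3 days against 46.6 CPM elsewhere, and 317 against 49.1 CPM at 28 days, so that its log2 ratios were 2.74 (2.67 to 2.80) and 2.69 (2.60 to 2.78). Both sections therefore gave nearly the same thalamic level for this metabotropic gene. Among the NMDA subunits, Grin2d was 4.29-fold higher in the thalamus at 3 days and 3.68-fold at 28 days, and Grin2c was 2.35-fold and 2.28-fold higher. Of the GABA-A subunits, Gabra4 was 4.08-fold and 3.58-fold higher and Gabrd 2.73-fold and 2.77-fold. Gabra4 and Gabrd encode subunits that join in extrasynaptic receptors, which give thalamic relay neurons a tonic chloride current. Gabrb2, a subunit of the same receptors, was just at the limit, with log2 ratios of 1.02 (0.96 to 1.08) and 0.92 (0.85 to 1.0). Gabra5, Gria2 and Grm8 were at least 2-fold lower in the thalamus in both sections, 3 of 36 members against 7.24% of all genes compared.

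Gabra4 has an immediate neighbour with a different pattern. In the RefSeq annotation of GRCm38.p6, Gabra4 lies on the minus strand of chromosome 5 (71569734 to 71658308) and Gabrb1, a beta subunit gene, on the plus strand (71657921 to 72149572), and their first 388 bases overlap. Gabrb1 was 1.36-fold and 1.52-fold higher in the thalamus, so of this pair of genes that start within 387 bases of each other, Gabra4 passed the 2-fold limit and Gabrb1 did not. Their 5′ windows, from 250 bases before to 50 bases after the start, are shown because the genes are read in opposite directions from nearly the same place. Of Gabrb1, which has 2 listed starts, the window of the more upstream one is given. The Gabra4 window is chr5:71658259-71658558 (minus strand) and the Gabrb1 window chr5:71657671-71657970 (plus strand). Capitals mark matches, on either strand, to the CCAAT box (CCAAT) or the GC box (GGGCGG).
Gabra4: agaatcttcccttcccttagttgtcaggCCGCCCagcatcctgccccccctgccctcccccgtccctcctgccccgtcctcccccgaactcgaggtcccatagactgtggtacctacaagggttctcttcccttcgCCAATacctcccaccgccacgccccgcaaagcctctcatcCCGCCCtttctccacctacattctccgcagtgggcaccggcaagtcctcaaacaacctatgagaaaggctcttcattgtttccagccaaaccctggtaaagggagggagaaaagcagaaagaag
Gabrb1: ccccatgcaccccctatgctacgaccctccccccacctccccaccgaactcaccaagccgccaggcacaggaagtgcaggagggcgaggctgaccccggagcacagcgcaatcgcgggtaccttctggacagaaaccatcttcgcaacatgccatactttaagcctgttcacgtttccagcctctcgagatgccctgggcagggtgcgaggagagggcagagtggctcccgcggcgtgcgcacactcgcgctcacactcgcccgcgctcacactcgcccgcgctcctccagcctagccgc
The Gabra4 window held 1 CCAAT box and 2 GC boxes, and the Gabrb1 window held neither motif. Of all 32851 windows, 37.4% held CCAAT and 35.7% held GGGCGG. No TATA box (TATAAA, in 13.6% of windows) and no cAMP response element (TGACGTCA, in 1.79%) was in either window.

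In the hippocampus, here the patch of bins marked by the CA3 genes Bok, Iyd and Cpne4, the high members were Gabra5, Grik4 and Gria1, 3 of 36 against 2.06% of all genes compared. Gabra5, the alpha subunit of extrasynaptic hippocampal receptors, had 258 against 50.9 CPM at 3 days and 333 against 56.3 CPM at 28 days. Grik4, a kainate subunit typical of CA3 mossy fibre synapses, had 168 against 33.7 CPM and 191 against 35 CPM. Gria1, an AMPA subunit, was 2.46-fold and 2.64-fold higher. Grin2a passed the 2-fold limit only at 28 days, with log2 ratios of 0.87 and 1.16. Of the 36 members, 15 were at least 2-fold lower there in both sections, against 9.66% of all genes compared. Among these 15 was Gabra3, which was not above the rest in any region by 2-fold in both sections.

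The area marked by hypothalamic genes, which also takes in adjoining amygdala, had 5 high members of 36, against 2.48% of all genes compared. Gabrg1, a gamma subunit, had 94.8 against 21.6 CPM at 3 days and 91.5 against 24.7 CPM at 28 days. Grik1 was 2.68-fold and 3.03-fold higher, Grin3a 2.79-fold and 2.22-fold, and Grin2d, a subunit also high in the thalamus, 2.01-fold and 2.07-fold. Gabra4, Gabrd, Grin2a and Grm4, all but Grin2a high in the thalamus, were at least 2-fold lower here in both sections (4 of 36 members, against 3.81% of all genes compared).

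Large ratios above the rest were also seen for Gabre and Gabrq, the genes of the epsilon and theta subunits, which mark hypothalamic and brainstem neurons. They had too few UMIs for the rule above and were singled out after their values were seen. Gabre had 12.4 CPM in the hypothalamic area against 0.489 CPM elsewhere at 3 days (166 and 34 UMIs) and 12.2 and 0.654 CPM at 28 days (85 and 25 UMIs), or 25.1-fold and 18.4-fold. Gabrq had 15.7 against 0.618 CPM (209 and 43 UMIs) and 19.7 against 0.785 CPM (137 and 30 UMIs), or 25.1-fold and 24.8-fold. The 2 genes thus had about the same restriction in both sections. They flank Gabra3 on chromosome X, within 586 kb that hold these 3 GABA-A genes (Gabre 72256926 to 72274828, Gabra3 72432676 to 72656919 and Gabrq 72825163 to 72842607). Gabra3 was nearly even, with 157 against 142 CPM and 151 against 136 CPM, so the neighbour between them did not share the restriction. The windows of Gabre (chrX:72274672-72274971, minus strand) and Gabrq (chrX:72824928-72825227, plus strand) are shown as those of the 2 members that were high together, with the same motifs in capitals. They were drawn around the starts that the window table uses, 72274721 for Gabre and 72825178 for Gabrq, which lie inside the outer ends of the genes given above.
Gabre: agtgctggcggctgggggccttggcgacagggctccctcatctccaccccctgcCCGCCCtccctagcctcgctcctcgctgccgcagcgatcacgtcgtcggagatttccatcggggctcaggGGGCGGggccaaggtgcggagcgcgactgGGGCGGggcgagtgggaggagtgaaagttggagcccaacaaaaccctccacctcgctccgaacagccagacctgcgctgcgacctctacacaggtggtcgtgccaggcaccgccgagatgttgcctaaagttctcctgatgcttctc
Gabrq: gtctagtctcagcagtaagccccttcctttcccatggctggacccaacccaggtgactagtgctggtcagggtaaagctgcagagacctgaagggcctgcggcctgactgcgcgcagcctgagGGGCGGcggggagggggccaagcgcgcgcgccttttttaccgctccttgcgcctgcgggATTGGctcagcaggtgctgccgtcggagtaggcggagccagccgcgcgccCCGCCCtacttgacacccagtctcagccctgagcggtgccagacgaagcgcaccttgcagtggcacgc
The Gabre window held 3 GC boxes and the Gabrq window 2 GC boxes and 1 CCAAT box. Both were rich in G and C, at 66.7% and 67%, with 24 and 23 CG dinucleotides, against a median of 52.7% and 7 over all windows. The Gabra4 window had 58.7% and 12, and the Gabrb1 window 66% and 25.

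Of the other regions, the striatum had 3 of 36 (2.32% of all genes compared). They were Grm5, at 251 against 118 CPM and 318 against 106 CPM, Gabrd, 2.25-fold and 2.43-fold higher, and the kainate gene Grik2, 2.03-fold and 2.10-fold higher. Cortical layer 4 had 2 of 36 against 0.702%, among them Grm2, a presynaptic metabotropic receptor (4.03-fold and 3.81-fold). Layer 6 had Grik3 (2.97-fold and 3.14-fold) and Grm8 (2.03-fold and 2.68-fold), 2 of 36 against 1.19%. Grm2 was also the only high member in the habenula (3.73-fold and 2.45-fold; 1 of 36 against 4.54%). Upper layers (1.22%) and layer 5 (0.559%) had none.

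In white matter no member with enough UMIs was at least 2-fold higher in both sections, against 6.9% of all genes compared, and 19 of 36 were at least 2-fold lower in both, against 7.52%. Grm3, a metabotropic receptor that astrocytes and oligodendrocyte precursors also make, was the 1 compared member above the rest in both sections, at 339 against 182 CPM at 3 days and 349 against 198 CPM at 28 days. Gabrr2, a rho subunit best known from retina, had 6.78 against 0.70 CPM (20 and 56 UMIs) and 11.3 against 1.33 CPM (26 and 57 UMIs), and was singled out after its values were seen. Its log2 ratios were 3.30 (2.46 to 4.03) at 3 days and 3.10 (2.36 to 3.78) at 28 days.

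Other members were at the edge of detection. Over the whole section, Gabrp had 5 UMIs at 3 days and 10 at 28 days, Gabrr3 had 6 and 15, and Gabrr1 had 12 and 10. Grm6, the receptor of retinal bipolar cells, had 12 and 8, and Gabra6, the alpha subunit of cerebellar granule cells, had 23 and 16. Grin3b, which motor neurons make, had 117 and 73. These genes were too sparse for the rule on regions, and their levels by region are not given.

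The lesion zone was then compared with its mirror image across the midline. The zone was the area on the injured side where 6 phagocyte genes (Cd68, Lyz2, Ctsz, Lgals3, Cd52 and Laptm5) lay above the 99th percentile of opposite-side tiles. It held 8506 bins at 3 days and 13559 at 28 days. Nearly all receptor genes were lower in it. Of the 36 members with at least 20 UMIs over zone and mirror zone at 3 days, 32 were lower and 30 had intervals wholly below 0, with a median log2 ratio of -1.0. At 28 days 37 of 38 were lower, 34 with intervals below 0, and the median was -0.96. At least 2-fold lower were 18 of 36 at 3 days, against 8.57% of 13542 genes tested, and 17 of 38 at 28 days, against 7.82% of 13593. No member was 2-fold higher, against 17% and 16.4% of all genes. Over all genes tested, 42% at 3 days and 50.1% at 28 days were below 0, and the medians were 0.13 and -0.00. The share of all genes with intervals below 0 was not computed. In these bulk sums of an area, fewer neurons and less RNA per neuron cannot be told apart.

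Markers moved with these values. The 8 neuron markers Snap25, Syt1, Rbfox3, Stmn2, Eno2, Tubb3, Map2 and Nefl were all lower, 8 of 8 in both sections, from -2.10 to -0.28 at 3 days and from -1.45 to -0.81 at 28 days, with medians of -1.14 and -1.24, close to those of the receptor genes. Markers of neuron types diverged at 3 days. The 4 glutamatergic markers had a median of -1.88, with 4 of 4 at least 2-fold lower and Slc17a6 lowest at -3.25, while the 4 GABAergic markers had a median of -0.53, from -1.17 for Gad1 to 0.33 for Gad2. At 28 days these medians were -1.28 and -1.42. The 6 astrocyte markers had medians of 0.56 at 3 days, from -0.80 for Aldoc to 1.65 for Gfap with 2 of 6 below 0, and 1.27 at 28 days, from 0.19 for Slc1a2 to 4.69 for Gfap. Markers of other cells were higher too, with medians of 1.91 and 1.01 for 5 genes of oligodendrocyte precursors and of 2.13 and 0.54 for 4 endothelial genes. The part of these cells in the values of the receptor genes was not tested. The mirror zone was also not the same tissue as the zone. At 3 days 18.7% of its bins were scored as thalamus, 17.5% as hippocampus, 28.1% as cortex, 20.5% as white matter and 0% as striatum. The zone had 0% thalamus, 0% hippocampus by the CA3 label, 9.22% cortex, 48.4% white matter and 18.4% striatum. At 28 days thalamus made up 38.8% of the mirror zone and 20.1% of the zone. Bins of the same region were therefore compared as well.

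**Figure D2:**
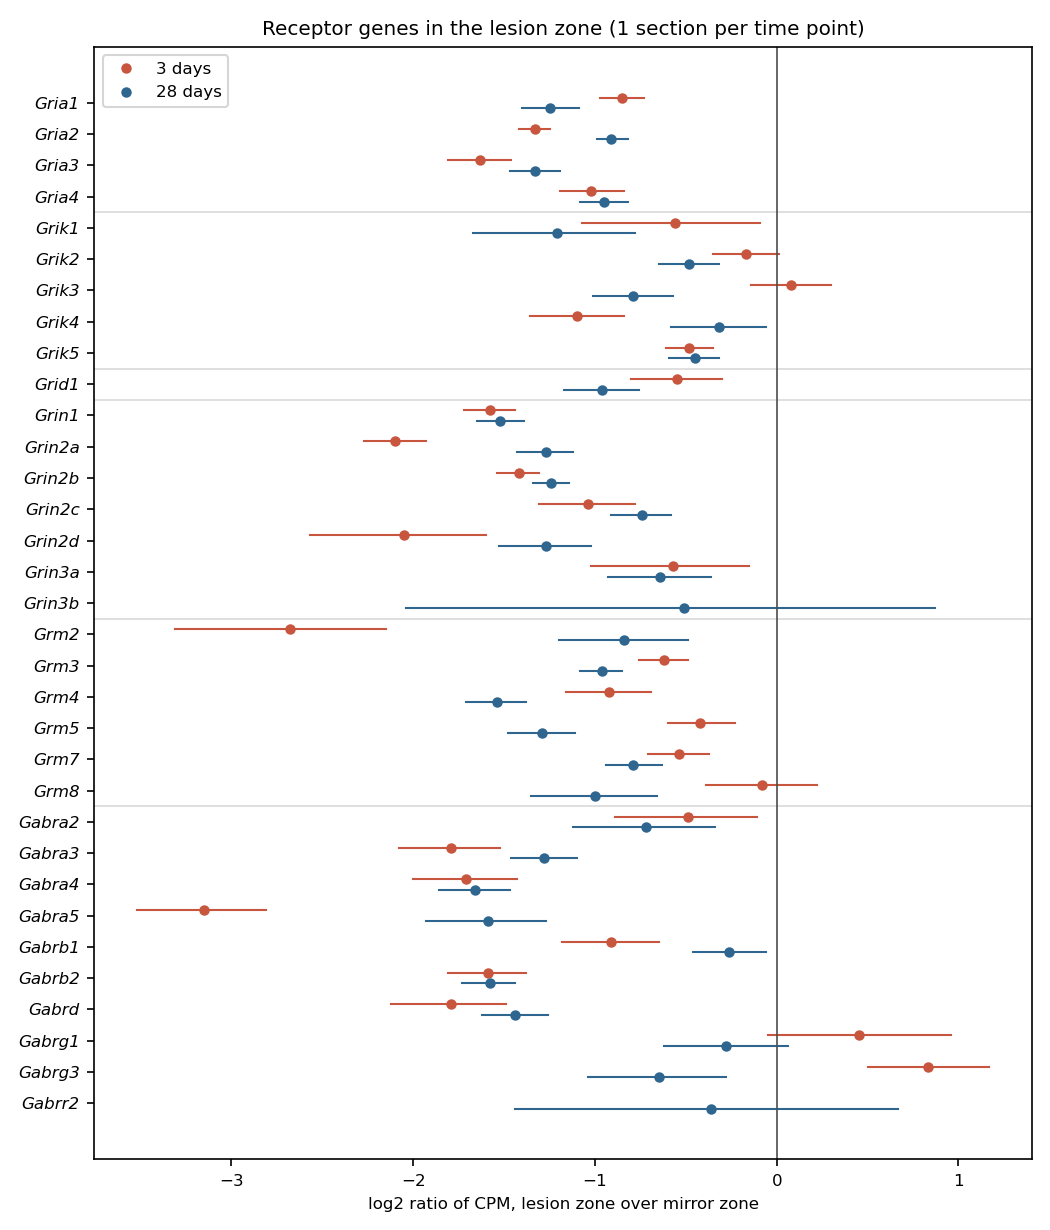
Log2 ratio of CPM in the lesion zone over the mirror zone (x axis) for receptor genes with at least 20 UMIs over both (y axis, grouped by receptor class), at 3 days (red) and 28 days (blue). Points are the ratios of 1 section each and bars the 95% intervals for counting error. Most points lie left of 0, with Gabra5 lowest at -3.15 at 3 days and Gabrg3 highest at 0.83 at 3 days.

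The 4 AMPA genes were all lower in the zone than in the mirror zone in both sections. Gria2, the subunit that makes AMPA receptors impermeable to calcium, had 286 CPM in the zone against 720 CPM in its mirror image at 3 days, and 243 against 456 CPM at 28 days. Gria1 had 154 against 278 CPM and 68.2 against 162 CPM, Gria3 64.9 against 201 CPM and 81.2 against 204 CPM, and Gria4 70.1 against 142 CPM and 100 against 194 CPM. The ratio of Gria1 to Gria2 UMIs, in which depth and probe efficiency cancel, was 1.40 times that of the mirror zone at 3 days (1.26 to 1.55) and 0.79 times at 28 days (0.699 to 0.892). The 2 intervals lay on opposite sides of 1. In bins scored as the same region, Gria1 was not lower at 3 days in cortex, with 218 against 180 CPM (0.28, 0.04 to 0.50), or in white matter, with 99.9 against 59.3 CPM (0.75, 0.45 to 1.05), and was lower in striatum (-0.45, -0.64 to -0.27).

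NMDA genes had medians of -1.50 over 6 measured genes at 3 days and -1.24 over 7 at 28 days, below those of the other glutamate receptor classes against the mirror zone. Within 1 region the order differed, as in cortex at 3 days, where AMPA genes had a median of -1.17 and NMDA genes of -0.92, and in white matter at 28 days, where metabotropic genes had -1.02 and NMDA genes -0.94. Grin1, the subunit that all NMDA receptors need, had 99.9 against 298 CPM and 89.0 against 255 CPM. Grin2a, the subunit of mature synapses, had 62.0 against 266 CPM at 3 days (-2.10, -2.27 to -1.93) and 64.4 against 156 CPM at 28 days (-1.27, -1.43 to -1.12). Grin2b, the subunit that dominates early in life, was at -1.42 and -1.24. The ratio of Grin2a to Grin2b in the zone was 0.626 times that of the mirror zone at 3 days (0.542 to 0.723) and 0.977 times at 28 days (0.857 to 1.11), so its interval lay below 1 at 3 days and held 1 at 28 days. Against the whole opposite side it was 0.828 and 0.795 times. Grin2d was at -2.05 and -1.27, with 43 UMIs in the zone at 3 days, Grin2c at -1.04 and -0.74, and Grin3a at -0.57 and -0.64.

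Several kainate genes were nearer to 0. Grik5, the subunit that joins most kainate receptors, was at -0.48 and -0.45, and Grik2 at -0.17 (-0.35 to 0.01) and -0.48 (-0.65 to -0.32). Grik3 had 58.9 against 55.7 CPM at 3 days and 36.9 against 63.8 CPM at 28 days, Grik4 was at -1.10 and -0.32, and Grik1 at -0.56 and -1.21. The delta gene Grid1 was at -0.55 and -0.96.

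The 7 metabotropic genes with enough UMIs were below 0 in both sections. Grm2 was the lowest at 3 days, with 5.62 against 36.7 CPM (29 and 267 UMIs, -2.68, -3.31 to -2.15), and Grm4 was at 53.7 against 156 CPM at 28 days (-1.54, -1.71 to -1.38). Grm4 was also high in the thalamus, and its ratio at 28 days was -0.74 against the whole opposite side and -0.76 with the axis moved towards that side. Grm5, a receptor that astrocytes also make, was at -0.42 and -1.29, Grm3 at -0.62 and -0.96, Grm7 at -0.54 and -0.79, and Grm8 at -0.08 and -1.0. Against the whole opposite side Grm8 was at -0.76 at 3 days, and with the axis moved towards that side at -0.69.

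GABA-A genes had the widest range at 3 days, with medians of -1.62 over 12 measured genes at 3 days and -1.16 over 13 at 28 days. The median at 3 days was -0.91 with no minimum of UMIs per gene, and in bins of the same region it was -0.90 in cortex, -1.05 in striatum and -0.38 in white matter. The alpha genes had medians of -1.79 and -1.51 against the mirror zone. In bins of the same region at 3 days their median was -0.90 in cortex, -1.55 in striatum and 0.08 in white matter. In that white matter 2 of 5 alpha genes were at least 2-fold lower and 3 were above 0. Gabra5 had 14.1 against 126 CPM at 3 days (73 and 919 UMIs, -3.15, -3.52 to -2.81) and 14.1 against 42.7 CPM at 28 days (-1.59, -1.93 to -1.27). The mirror zone at 3 days held 1376 of the 2096 bins of the hippocampal patch in which Gabra5 was high, and against the whole opposite side the ratio was -2.05. In bins of the same region at 3 days Gabra5 was at -0.42 in cortex and -2.44 in striatum. Gabra3 had 24.6 against 85.4 CPM and 47.9 against 116 CPM, and Gabra4 24.2 against 79.4 CPM and 40.9 against 130 CPM, a ratio of -1.66 at 28 days. The mirror zone at 28 days held more thalamus, where Gabra4 was high, than the zone. Against the whole opposite side Gabra4 was at -0.91, and with the axis moved towards that side at -0.95, so it was not 2-fold lower against these references. Gabra2, the alpha subunit of axon initial segments, was nearer to the mirror zone, at -0.49 and -0.72.

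The beta, gamma and delta genes split. Gabrb2 was at -1.59 and -1.58 and Gabrb1, the neighbour of Gabra4, at -0.91 (-1.18 to -0.65) and -0.26 (-0.46 to -0.06). Against the mirror zone at 28 days, Gabra4 and Gabrb1 were thus the lowest and the second highest of the 38 members measured, and against the whole opposite side they were at -0.91 and -0.17. In bins scored as the same region at 3 days Gabrb1 was nearer to 0, at 0.13 in cortex, 0.03 in striatum and -0.20 in white matter. At 28 days Gabrb1 was at 0.58 in cortex, 0.09 in striatum, 0.13 in white matter and -0.36 in thalamus. Gabrd was at -1.79 and -1.44. Gabrg1, a gamma subunit that glia also make, was at 0.45 (-0.05 to 0.96) and -0.28 (-0.62 to 0.06), with 68 against 70 UMIs and 131 against 164 UMIs, and at 28 days it was at -0.93 against the whole opposite side. At 3 days Gabrg1 was below 0 in bins scored as the same region, at -2.83 in cortex, -0.77 in striatum and -0.38 in white matter. Gabrg3 had 33.5 against 18.8 CPM at 3 days (173 and 137 UMIs, 0.83, 0.50 to 1.17) and 13.4 against 21.1 CPM at 28 days (96 and 156 UMIs, -0.65, -1.04 to -0.28). Gabrg3 was the only member with an interval above 0 at 3 days and below 0 at 28 days. In bins scored as the same region its ratio at 3 days was 0.85 (0.36 to 1.27) in cortex, 0.31 (-0.08 to 0.68) in striatum and -0.13 (-0.95 to 0.63, 24 and 38 UMIs) in white matter, which made up 48.4% of the zone. On the opposite side at 3 days Gabrg3 was at 1.02 in striatum, -0.71 in thalamus and -2.35 in hippocampus. Striatum made up 18.4% of the zone and 0% of its mirror image, and the part of this difference in the ratio was not tested. A further 7 members had under 20 UMIs over zone and mirror zone in both sections. Gabrr2 and Grin3b passed that limit only at 28 days, with 35 and 20 UMIs.

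**Figure D3:**
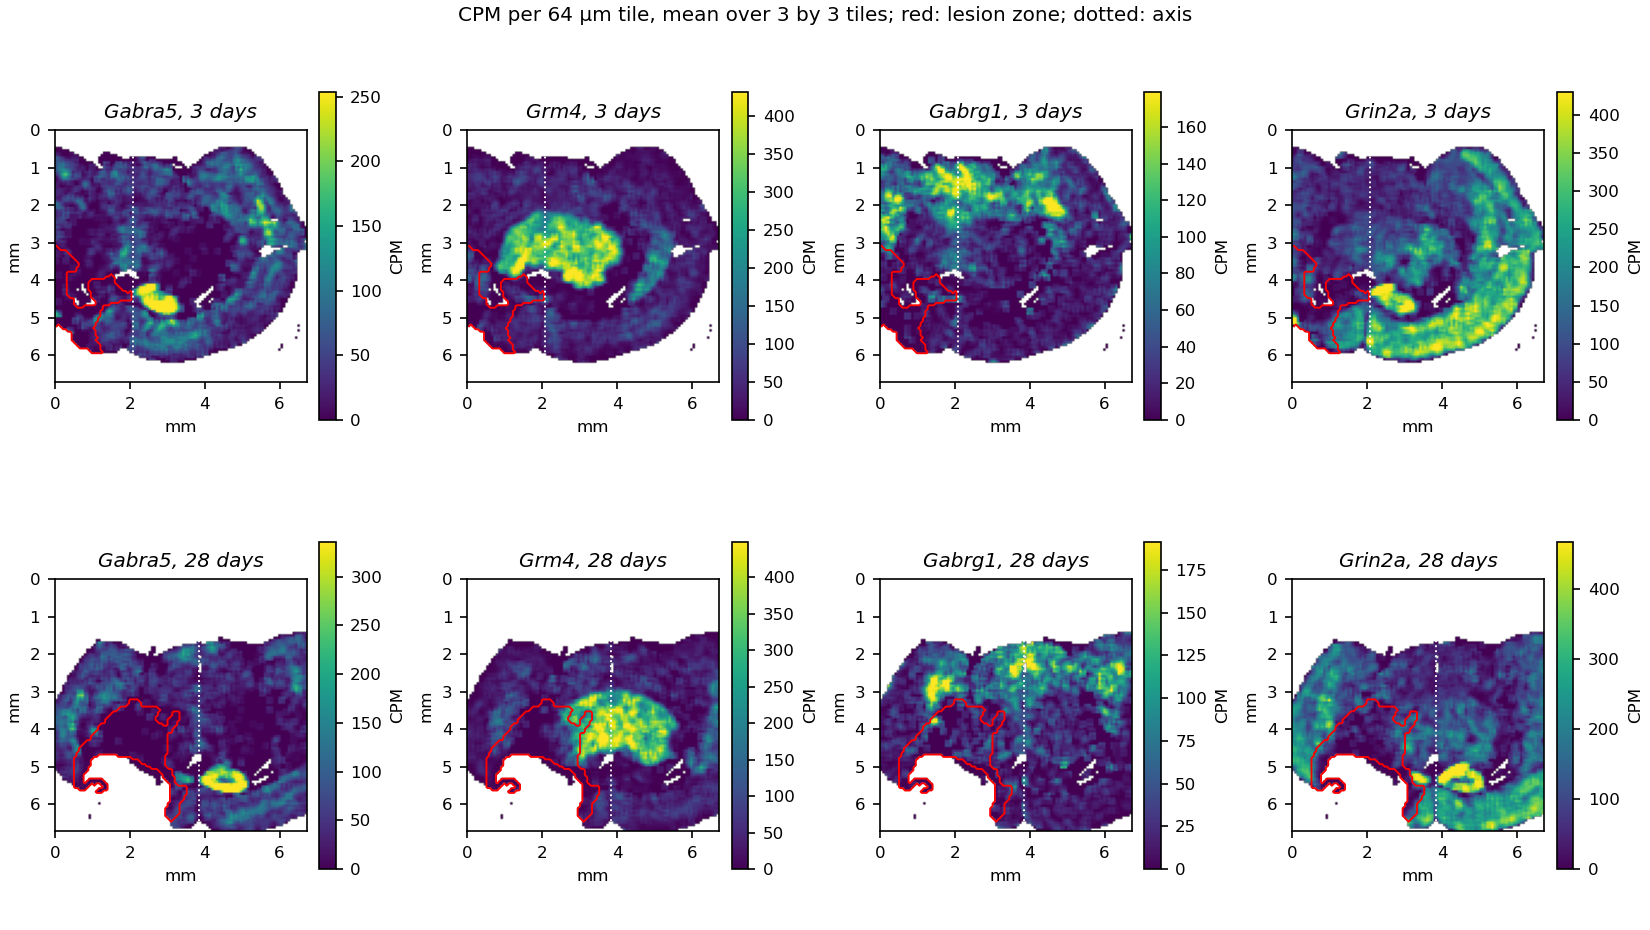
CPM of Gabra5, Grm4, Gabrg1 and Grin2a (columns) over the sections at 3 days (top) and 28 days (bottom), in tiles of 64 µm averaged over neighbouring tiles, with the dorsal side at the bottom and the injured side at the left. Axes are millimetres on the array, colour scales differ between panels and end at the 99th percentile, the red line is the lesion zone and the dotted line the axis. Gabra5 stands out in the hippocampal patch, Grm4 in the thalamus and Gabrg1 in the hypothalamic area, and in the zone at 28 days Grm4 is low except at the edge that meets the thalamus.

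Zone bins took their region from the marker RNA that they still held. Any bins that had lost those markers drop out or take another label. Bins scored as the same region are therefore no full match of tissue, and how far this set their medians was not tested. Comparing bins of the same region left the medians of the members below 0, nearer to 0 than in the whole zone. In white matter at 28 days, 40.4% of that zone, they hardly moved, with a median of -0.91 against -0.96 and of -1.18 against -1.16 for the GABA-A genes. At 28 days, 2730 zone bins still scored as thalamus. Against the thalamus of the opposite side the 36 members had a median of -0.69, with 6 at least 2-fold lower, against 4.4% of 12331 genes. The 8 neuron markers had a median of -0.65 there. The 4 markers of GABAergic neurons had a median of -3.12, with 3 of 4 at least 2-fold lower and Gad1 lowest at -3.75, and their part in the values of the members was not tested. Gabra3 had 69.5 against 165 CPM (-1.24, -1.57 to -0.94) and Gria1 71.0 against 140 CPM (-0.97, -1.29 to -0.67), while Grik5 was at -0.14 (-0.41 to 0.11) and Grik4 at 0.03 (-0.53 to 0.53).

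A second match used the 4562 zone bins at 28 days whose mirror bin was thalamus, whatever they scored themselves. The median of the members was -0.67 against -1.03 for the neuron markers, and 8 of 36 were at least 2-fold lower, against 4.73% of 11978 genes. The medians were -0.67 for the glutamate receptor genes and -0.62 for the GABA-A genes, so the GABA-A genes were not lower as a class. Of the GABA-A genes, Gabra4 had 81.2 against 221 CPM and Gabrb2 122 against 316 CPM. Grm8 was the 1 member at least 2-fold higher (27 against 16 UMIs, a log2 ratio of 1.22), against 12.2% of all genes.

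In the remaining regions the medians of zone bins against the same region opposite were -0.86 in striatum and -0.44 in white matter at 3 days, and -0.67 and -0.91 at 28 days. The neuron markers had medians of -0.86 in striatum, -1.01 in white matter and -0.50 in cortex at 3 days, and of -0.90, -1.27 and -0.42 at 28 days. In white matter at 3 days the 4 GABAergic markers had a median of -2.16, with 4 of 4 at least 2-fold lower. The part of these neurons in the values of the members was not tested. At least 2-fold lower were 12 of 36 in striatum (against 6.57% of all genes) and 12 of 37 in white matter (against 8.38%) at 3 days, and Grm4 was at least 2-fold higher in white matter (1 of 37, against 8.85%). At 28 days it was 7 of 35 (against 5.93%) in striatum and 13 of 36 (against 6.33%) in white matter. In cortex the median was -0.63 at 3 days, with 15 of 37 at least 2-fold lower (against 7.07%), and -0.24 at 28 days, where only 397 bins were scored and 1 of 36, Grm8, was at least 2-fold lower (against 4.55%). In cortical zone bins at 3 days Gabrd had 11.8 against 90.8 CPM, while Grik4 had 72.3 against 39.1 CPM (0.90, 0.47 to 1.28). Gabrd and Grik4 marked the low and high ends of that comparison. Cortical areas differ along the section, layers were not matched, and the zone bins were set against all cortex opposite. Area, layer and injury therefore cannot be told apart in these values.

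Outside the zone, the medians of the receptor genes were nearer to 0 than in it. In bands of distance from the zone against mirrored bands, the median of the members at 3 days was -0.64 within 250 µm, -0.19 from 250 to 500 µm, -0.01 from 500 to 1000 µm and -0.04 from 1000 to 2000 µm. The neuron markers were at -0.71, -0.05, -0.15 and 0.02, close to the members within 250 µm but not in the same order from 250 to 1000 µm. At 28 days the medians were -0.15, 0.03, 0.06 and 0.04. Within 250 µm at 3 days, 11 of 37 members were at least 2-fold lower (against 3.93% of 13569 genes) and at 28 days 2 of 37, Gabra5 and Gabrr2 (against 0.582% of 13402).

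The band next to the zone at 3 days was led by genes that were high in thalamus or hippocampus. Gabra5 had 18.4 against 79.8 CPM and Gabra4 39.3 against 113 CPM, and the 6 thalamic markers were also lower there, with a median of -1.88. Among members with at least 200 UMIs, Gabrg3 was again highest, at 34.0 against 19.6 CPM (0.79, 0.49 to 1.10), followed by Grik3 at 61.9 against 46.7 CPM. In cortex within 250 µm of the zone, compared with cortex opposite, the median was -0.32, with Gabrd at 25.2 against 90.8 CPM and Grm2 at 31.7 against 66.8 CPM. Layers were not matched in this comparison, and their part in these values was not tested. At 28 days the matched medians within 250 µm were -0.04 in cortex and -0.02 in thalamus. There Grin2c, an NMDA subunit that astrocytes also make, was highest in cortex, at 92.4 against 58.2 CPM (0.67, 0.44 to 0.89), and Grm3 was lowest in thalamus among members with at least 200 UMIs, at 75.7 against 108 CPM (-0.50, -0.82 to -0.21).

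**Figure D4:**
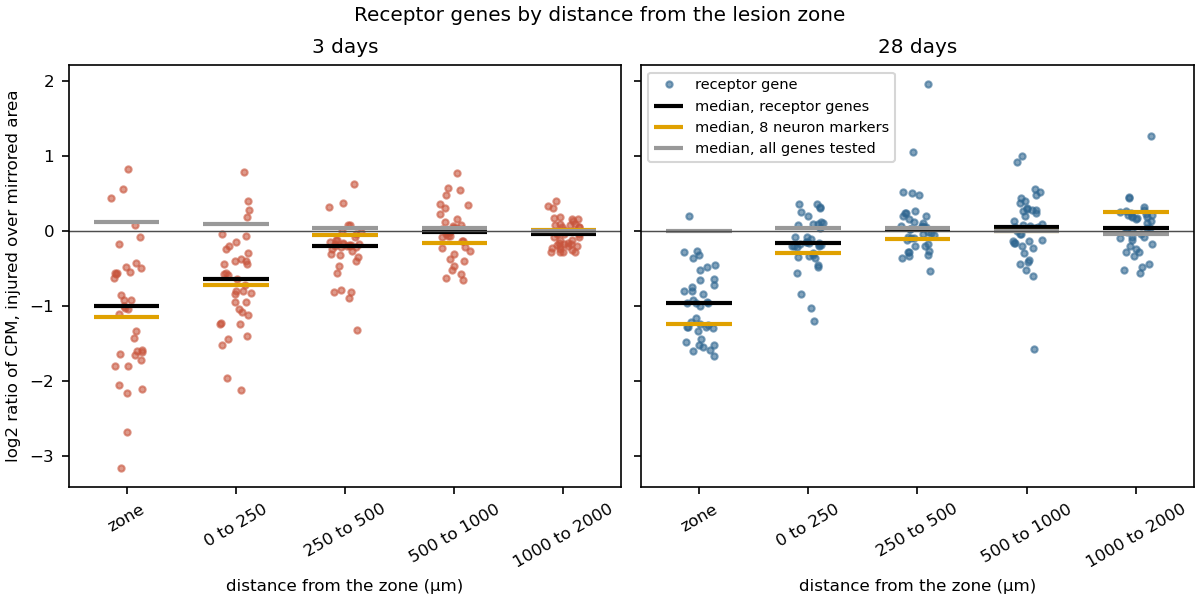
Log2 ratio of CPM of the injured side over the mirrored area (y axis) in the lesion zone and in bands of distance from it (x axis, µm), at 3 days (left) and 28 days (right). Each point is a receptor gene with at least 20 UMIs, and lines are medians of the receptor genes (black), 8 neuron markers (yellow) and all genes tested (grey). The black medians go from -1.0 in the zone through -0.64 and -0.19 to -0.01 at 3 days, and from -0.96 to -0.15 and 0.03 at 28 days.

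By whole region outside the zone, the members had a median of -0.20 in cortex at 3 days and -0.02 at 28 days, of 0.10 and -0.03 in thalamus, and of -0.06 and 0.04 in the hypothalamic area. In the same cortex at 3 days the 6 phagocyte genes had a median of 2.01, but they also set the border of the zone, so this value is no separate result. Markers of oligodendrocyte precursors had a median of 1.33, of endothelium 0.83, of astrocytes 0.37 with Gfap at 3.60, and of GABAergic neurons 0.37. The 8 neuron markers had -0.13, and the part of all these cells in the values of the members was not tested. Gabrd in cortex at 3 days was at least 2-fold lower on the injured side (42.8 against 92.0 CPM, -1.10), 1 of 37 against 2.08% of 13498 genes. The cortex of the 2 sides, zone bins included, also differed in layer markers at 3 days. Lamp5 had 194 against 370 CPM, Rorb 23.5 against 64.3 CPM and Syt6 45.2 against 20.3 CPM, while Fezf2 had 63.2 against 56.5 CPM. On the opposite side Gabrd was at 0.76 in upper layers and in layer 4 and at -0.59 in layer 5. The part of layers in its value was not tested. No member was at least 2-fold lower in the other comparisons, against 0.738% of all genes in cortex at 28 days, 1.12% and 0.46% in thalamus, and 1.74% and 0.82% in the hypothalamic area. In the thalamus at 3 days Gria3 was at -0.75, Gabrg3 at 0.78 and Gabra5 at 0.74. The 6 thalamic markers differed between the sides there, from -2.29 for the relay marker Prkcd to 0.08 for Tcf7l2 with a median of -0.73, and their part in these values was not tested. At 28 days, when Prkcd was at -0.01, Gria3 was at -0.12, Gabrg3 at 0.06 and Gabra5 at 0.34. In the hypothalamic area 4 markers of glutamatergic neurons had medians of -0.62 and 0.75, and their part in the values of the receptor genes was not tested. The hippocampus, named here by its CA3 genes alone, could not be compared between the sides. On the injured side no patch with that label was found in either section, and CA1 and dentate gyrus labels were not used. At 3 days the array held 39116 bins of the injured side against 80501 of the opposite side, and 928 zone bins lay in its first 8 columns, so the zone reached the array edge there. At 28 days the sides held 49478 and 53838 bins.

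The 37 fixed genes that work with these receptors (scaffolds, auxiliary subunits, transporters and enzymes) gave a similar picture in the zone. At 3 days 32 were lower, 17 at least 2-fold, with a median of -0.94, and at 28 days 33 were lower, 20 at least 2-fold, with a median of -1.05. Over all genes, 42% and 50.1% were lower, 8.57% and 7.82% at least 2-fold lower, and 17% and 16.4% at least 2-fold higher. The AMPA receptor partner Cnih2 was at -1.71 and -1.69, the GABA-B receptor gene Gabbr2 at -2.19 and -1.48, and of the 2 GABA-synthesising enzymes Gad1 was at -1.17 and -1.73 and Gad2 at 0.33 (0.18 to 0.47) and -1.48. The postsynaptic scaffold Dlg4 was at -0.98 and -1.0, and Gphn, the scaffold of inhibitory synapses that other cells also make, at -0.30 and -0.40. Slc1a3, the glutamate transporter of astrocytes, was the 1 gene at least 2-fold higher, at 1.21 and 1.44.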

How the data were processed

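Visium HD was run on 1 section (10 µm, fixed and paraffin-embedded) per mouse. The authors deposited raw UMI counts of each gene in each 16 µm bin, not normalized, from Space Ranger 4.0.1 per the file headers, with a mouse probe panel and the mm10 build per the labels. The members and gene lists were chosen with earlier results of these data known.

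Bins with under 100 UMIs were left out (1.93% at 3 days, 2.15% at 28 days). The midline was column 130 and column 240. The lesion zone was built from tiles of 4 by 4 bins (64 µm) averaged over 5 by 5 tiles, in patches of at least 25 tiles, and mirrored across the midline; its 6 genes are not results. Tiles took the region whose markers scored highest (score of 0.75 or more, patches of 35 tiles or more). Labels of CA1 and dentate gyrus were not used. UMIs were summed over areas of at least 300 bins. A gene needed 20 UMIs, 0.5 UMI was added to each sum before the log2 ratio, and intervals are exact conditional binomial ones at 95%. No p-values were computed, because bins of 1 section are not replicates. Members were named where they had at least 200 UMIs and 1 of the 5 highest or lowest ratios, belonged to a subunit pair, or were 2-fold higher in a region in both sections; further members fill in the receptor classes. Some members, and pairs with them, are not reported here by name; they stay in counts and medians. Promoter windows came from RefSeq for GRCm38.p6, where 30 of 45 members matched. Alternatives were TMM scaling, UMIs per bin, dropping either minimum, the 95th percentile for the zone, an axis moved by 20 bins (320 µm), the whole opposite side as reference, and paired bins. Region-matched comparisons inside the zone were added after the data were seen. The interval code was tested on simulated data. Sums and intervals were made in Python 3.11.15 with scipy 1.17.1, pandas 2.3.3 and numpy 2.4.6, figures with matplotlib 3.10.9, and TMM factors in R 4.3.3 with edgeR 4.0.16.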

Additional observations from a re-analysis of the deposited data

Results flagged for a closer look

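These members had intervals on opposite sides of 0 at 3 days and at 28 days. With 1 section per time point the difference between time points was not tested. How many of all genes did the same was not computed, so the counts below do not set the receptor genes apart. In the lesion zone this held for 1 of 34 members with at least 200 UMIs, Gabrg3, at 0.83 and -0.65. Its value at 3 days was 0.24 against the whole opposite side and 0.40 with the axis moved towards the opposite side, and in white matter, 48.4% of the zone, it was -0.13 (-0.95 to 0.63).

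In cortex outside the zone it held for 3 of 36 members. Gria1 was at -0.30 and 0.12, Grin2b at -0.50 and 0.20, and Grm5 at -0.21 and 0.36. In thalamus it held for 0 of 34.

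In the hypothalamic area it held for 12 of 36. Among those below 0 at 3 days and above 0 at 28 days were Gabra5 (-0.37 and 0.45), Gria1 (-0.43 and 0.23), Gria2 (-0.16 and 0.13), Gria3 (-0.31 and 0.15), Grik5 (-0.15 and 0.17), Grin1 (-0.16 and 0.18), Grin2a (-0.45 and 0.39), Grin2b (-0.22 and 0.27) and Grm2 (-0.54 and 0.53). Gria4 (0.13 and -0.14) and Grm3 (0.39 and -0.26) ran the other way. The glutamatergic markers Slc17a7, Slc17a6, Camk2a and Nrgn had medians of -0.62 and 0.75 in this area, and their part in the result was not tested.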

How the results depend on the processing

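No pairing of animals was possible because each group had 1 section, and no test was run. With only the zone bins that had a mirror bin, and those mirror bins, 17 members were at least 2-fold lower at 3 days (from 18). At 28 days it was 20 (from 17), and Grm4 was at -1.21 (from -1.54). For 17 zone ratios of named members, 146 of 153 values under other settings kept their direction. The other 7 were Gabrb1 at 28 days (-0.26, but 0.06 with the axis moved towards the opposite side) and Grik3 at 3 days, at 0.08 but -0.04 with TMM scaling, -0.53 as UMIs per bin, -0.13 against the whole opposite side, -0.06 with no minimum per bin, -0.05 with the 95th percentile and -0.37 with the axis moved towards the opposite side. Their sizes moved more. Outside their intervals were 13 of 17 as UMIs per bin, 11 of 17 against the whole opposite side and 9 of 17 with the axis moved towards it. Against the whole opposite side, at 28 days Gabra4 was at -0.91 (from -1.66), Grm4 -0.74 (from -1.54), Gabra5 -2.25 (from -1.59) and Gabrg1 -0.93 (from -0.28), and at 3 days Grm8 was at -0.76 (from -0.08). Grin2d at 3 days was -1.43 with the 95th percentile (from -2.05). As UMIs per bin, which includes the lower depth of the zone (607 against 927 UMIs per bin at 3 days, 528 against 628 at 28 days), the zone medians were -1.49 (glutamate) and -2.23 (GABA-A) at 3 days and -1.21 and -1.41 at 28 days, 30 and 26 members were at least 2-fold lower (against 22.7% and 13.2% of all genes tested), and the medians were 0.48 in thalamus at 3 days and -0.41 within 250 µm and -0.07 from 500 to 1000 µm at 28 days. With no minimum per gene the GABA-A medians were -0.91 and -0.94, and with the 95th percentile -1.28 and -0.94. Against the whole opposite side the GABA-A median at 28 days was -1.33. The pair ratios against it were 1.75 for Gria1 to Gria2 and 0.828 for Grin2a to Grin2b at 3 days, and 0.795 for Grin2a to Grin2b at 28 days. With the 95th percentile Grin2a to Grin2b was 0.73 at 3 days. Within 1 region, the glutamate and GABA-A medians at 3 days were -0.52 and -0.90 in cortex and -0.44 and -0.38 in white matter, and the GABA-A median in striatum was -1.05. At 28 days they were -0.13 and -0.28 in cortex (1 member 2-fold lower), -0.61 and -0.75 in thalamus (6), -0.61 and -0.82 in striatum (7), -0.83 and -1.18 in white matter (13) and -0.67 and -0.62 opposite the thalamus (8). With the axis moved towards the opposite side, Gabra5 at 3 days was -2.20. The cause of these shifts was not tested. The choroid plexus midpoint lay 369 µm and 221 µm from the axis, so mirrored areas are approximate, and spread between animals is not measured.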
